A study of Homo sapiens with 21 samples.

Results

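The regions described here are the Argonaute binding clusters that the authors annotated as lying in an exon or in a 5' UTR. They are the rows with either annotation, spaces trimmed, in 3 deposited PAR-CLIP lists, and they number 4580 of 113103 clusters in all. The list made with an AGO2 antibody in vehicle-treated cells holds 2102 exon and 247 5' UTR clusters among 56985, the AGO2 list in cyclosporine A-treated cells holds 1392 and 113 among 36812, and the list from an antibody against every Argonaute protein holds 654 and 72 among 19306. The "exon" class here is the authors' label, used beside the 2 UTR classes and others such as introns and promoters. How many of its clusters lie in coding exons was not checked.

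All samples were HK-2, an immortalised epithelial line from the proximal tubule of a human kidney, grown in a keratinocyte medium with epidermal growth factor and bovine pituitary extract. For PAR-CLIP, cells were kept for 24 h with cyclosporine A at 5 µg/mL or with its vehicle, 0.1% ethanol, and given 100 µM 4-thiouridine and 365 nm light at 0.15 J/cm2; for RNA sequencing the same 2 treatments lasted 48 h, with 4 libraries per treatment for polyadenylated RNA and 4 for small RNA. The labels name 2 AGO2 libraries per treatment, yet each treatment has 1 list, so nothing that compares lists has a replicate, and the treatment of the single all-Argonaute sample is not given. The series addresses which microRNAs and mRNAs take part in kidney toxicity of calcineurin inhibitors such as cyclosporine A.

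Argonaute proteins carry a microRNA (miRNA) whose bases 2 to 8, the seed, pair with a complementary stretch in an mRNA and lower its translation and stability. Effective sites lie mostly in 3' UTRs; sites in coding exons are known but usually repress less, because ribosomes pass over them, and 5' UTRs are scanned by the small ribosomal subunit. In PAR-CLIP, 4-thiouridine in the RNA is crosslinked to the bound protein, RNase T1 trims the RNA after G, and reads that pile up form a cluster with a strand, so a cluster can be compared with the strand of the gene it is assigned to.

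The miRNAs whose seed sites are followed below are given first, as RefSeq mature sequences, 5′ to 3′, with the seed in capitals.
let-7i-5p: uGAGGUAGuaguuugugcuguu
miR-10a-5p: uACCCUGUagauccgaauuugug
miR-222-3p: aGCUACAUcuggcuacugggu
miR-205-5p: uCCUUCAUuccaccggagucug
miR-181a-5p: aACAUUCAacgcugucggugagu
Examples of exon clusters that hold a site for one of them, lie on the strand of their gene and belong to a gene with at least 10 CPM (mRNA counts scaled to library size) are given next, in the letters of the deposited lists, with the site in capitals.
SNRNP200, let-7 site: gctgtggaCTACCTCacctgga
GDAP2, let-7 site: CTACCTCtctacttcccaa
EIF1, miR-10 site: ACAGGGTgaccaacgcaagaac
USP15, miR-10 site: ACAGGGTatgtttgtaaagc
COPS2, miR-222 site: taaacatagATGTAGCtgatgt
AHNAK, miR-222 site: ggccagATGTAGCtgtggatcta
ZBTB7A, miR-222 site: ccggttgaATGTAGCggg
ZBTB7A, miR-181 site: ccggtTGAATGTagcggg
KIDINS220, miR-205 site: tggcctggATGAAGGtgcc
CLIP1, vehicle list: gATGAAGGtggagatgatgtca
CLIP1, cyclosporine A list: agATGAAGGtggagatgatgtc
The 2 CLIP1 clusters (hg19 chr12:122758632-122758653 and chr12:122758633-122758654, minus strand) differ by a shift of 1 base and share their miR-205 site. The ZBTB7A cluster (chr19:4047826-4047843, minus strand) holds overlapping sites for miR-222 and miR-181 in 18 bases. ABHD3, CMSS1 and ADAMTS14 also met these conditions, each with a miR-205 site, and are not printed. The others shown lie at chr2:96944598-96944619 (SNRNP200), chr1:118441802-118441820 (GDAP2), chr17:39846399-39846420 (EIF1), chr12:62708579-62708598 (USP15), chr15:49420932-49420953 (COPS2), chr11:62291395-62291417 (AHNAK) and chr2:8873601-8873619 (KIDINS220), EIF1 and USP15 on the plus and the rest on the minus strand.

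The 5' UTR clusters of 4 abundant mRNAs are given as examples, SERPINH1 and S100A6 from the vehicle list and SCD and CCNL1 from the cyclosporine A list. Each was found letter for letter in the RefSeq sequence around the start of its own gene on the gene's strand. Most sense 5' UTR clusters were not found there, so the 4 do not stand for the class. None of the 4 holds one of the sites above, so no letter is in capitals.
SCD: ccgcgccagtcaactcctcg
SERPINH1: agtttctcgggacgggcagg
S100A6: ccagtcggactgcgacaca
CCNL1: cggctgcgttgggcttgcgtg
SCD encodes the stearoyl-CoA desaturase of fatty acid synthesis, SERPINH1 a collagen chaperone, S100A6 a calcium-binding protein and CCNL1 a cyclin of splicing. They lie at chr10:102106983-102107002 (SCD, plus strand), chr11:75273229-75273248 (SERPINH1, plus strand), chr1:153508472-153508490 (S100A6, minus strand) and chr3:156877899-156877919 (CCNL1, minus strand). Their first bases lie at -7, -69, -23 and 17 relative to the RefSeq gene start, with 3 of the 4 beginning upstream of it. Of 157 sense 5' UTR clusters in the vehicle list, 20 were found in such windows, which run from 250 bases before to 50 bases after the start, and 6 of the 20 began after the start.

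Exon and 5' UTR clusters made up a small and similar share of every list. The share was 4.12% of the vehicle AGO2 list (95% Wilson interval 3.96 to 4.29%), 4.09% of the cyclosporine A AGO2 list (3.89 to 4.30%) and 3.76% of the all-Argonaute list (3.50 to 4.04%); these intervals, like all others here, cover counting error only. Introns held 42.4%, 42.6% and 42.8% and intergenic sequence 46.9%, 46.8% and 47.2% of the same lists, while 3' UTRs held 1.31%, 1.44% and 1.02%. Clusters were short, with a median exon length of 20, 20 and 19 bases. In the vehicle list they were spread thinly over genes: 1624 of 1830 gene symbols with an exon cluster had a single one. The authors' score, whose unit is not given in the sources used here, ranged over exon clusters of that list from 3 to 13177 around a median of 44.5, and is used below only to rank clusters inside a list.

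Clusters lay more often on the strand of their gene than on the other strand in both AGO2 lists. Over all members of the all-Argonaute list this was not seen, but their highest-scored group was sense in 60.0% (interval 52.0 to 67.5%). Gene strand was known for 1923 of 2349 vehicle, 1232 of 1505 cyclosporine A and 602 of 726 all-Argonaute members. In the vehicle AGO2 list 62.4% of exon clusters (1071 of 1717, interval 60.1 to 64.6%) and 76.2% of 5' UTR clusters (157 of 206, 70.0 to 81.5%) were sense. In the cyclosporine A AGO2 list the shares were 65.0% (742 of 1142, 62.2 to 67.7%) and 73.3% (66 of 90, 63.4 to 81.4%). In the all-Argonaute list they were 53.2% (287 of 539, 49.0 to 57.4%) and 52.4% (33 of 63, 40.3 to 64.2%), and both intervals include an even split. The exon shares of the AGO2 lists stood near those of 3' UTR clusters (63.3% and 69.0%) and above those of intron clusters (54.0% and 55.1%). In the vehicle list 695 of the 1923 members with a known strand were antisense, and an antisense cluster does not have the sequence of the mRNA of the gene named beside it.

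**Figure D1:**
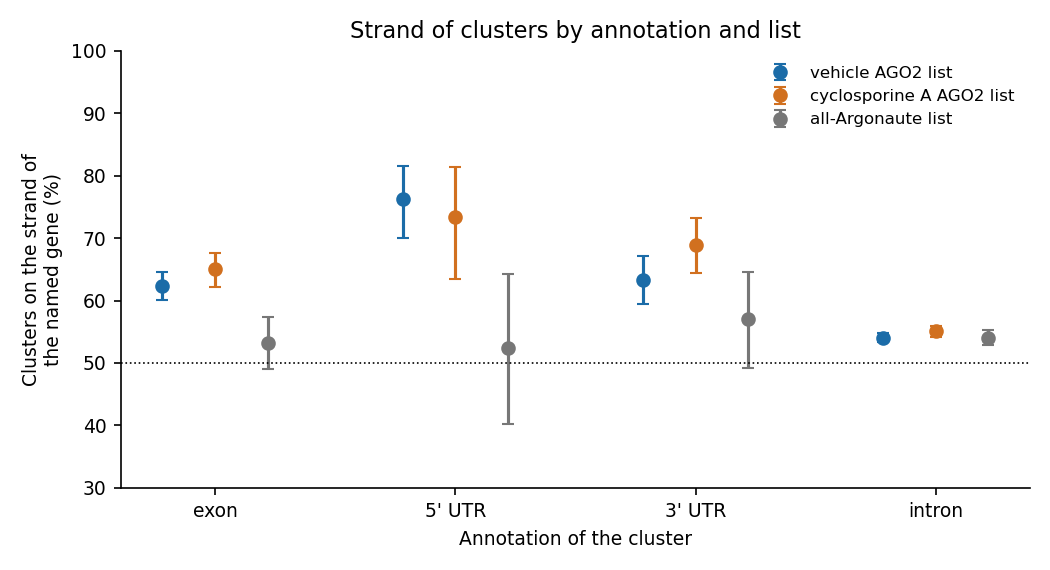
Share of clusters on the strand of the gene named (y axis, %), by annotation (x axis) and list (colour); points are shares, bars 95% Wilson intervals, and the dotted line is an even split. Exon and 5' UTR clusters of both AGO2 lists lie above the line at 62.4 to 76.2%, while the all-Argonaute exon and 5' UTR points lie at 53.2 and 52.4% with intervals that include it.

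The sense share followed the mRNA level of the gene in the AGO2 lists. In the vehicle list 47.8% of members were sense where the gene was under 1 CPM (183 of 383, interval 42.8 to 52.8%), 59.8% at 1 to 10 CPM, 67.2% at 10 to 100 CPM and 73.5% at 100 CPM or more (322 of 438, 69.2 to 77.4%). In the cyclosporine A list the same steps were 52.7%, 54.4%, 67.3% and 78.3%. In the all-Argonaute list, set against the vehicle mRNA libraries, the steps were 50.7%, 56.5%, 53.6% and 52.2%. CPM is not scaled by transcript length, so a long transcript reaches a higher bin, and offers more bases to be bound, at the same number of molecules.

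Counted over genes, sense and antisense clusters met at low mRNA level and parted at high level. Of 9509 genes under 1 CPM in vehicle libraries, 1.67% had a sense and 1.96% an antisense member of the vehicle list. Of 2150 genes at 100 CPM or more, 12.7% (interval 11.4 to 14.2%) had a sense and 5.07% (4.22 to 6.08%) an antisense member. The antisense share thus also grew with the level of the gene. In the cyclosporine A list the shares went from 1.18% and 1.12% to 9.37% and 2.84%, whereas in the all-Argonaute list the top bin held 2.60% and 2.56%.

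**Figure D2:**
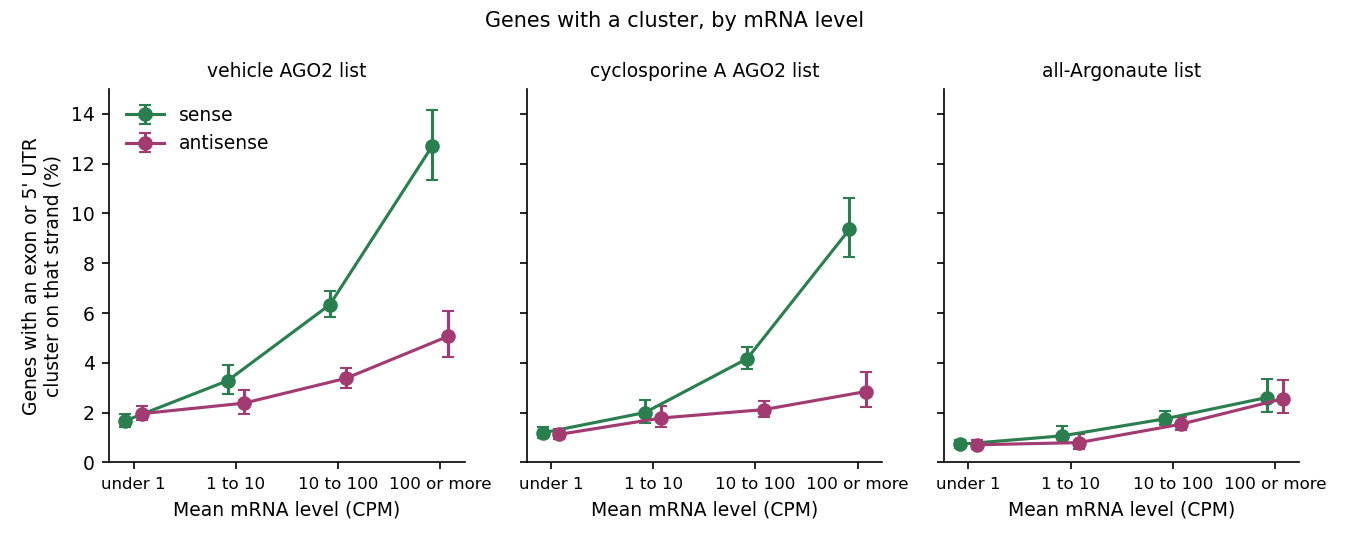
Share of genes with an exon or 5' UTR cluster on the gene's strand (green) or the other strand (purple) by mean mRNA level (x axis, CPM; cyclosporine A libraries for the middle panel, vehicle libraries for the others); bars are 95% Wilson intervals. In both AGO2 panels the green line ends far above the purple one, at 12.7% against 5.07% and 9.37% against 2.84%, and in the all-Argonaute panel they end together at 2.60 and 2.56%.

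In the AGO2 lists the strand preference was not carried by the clusters with the highest scores. When the vehicle members were divided by score into 4 groups of near-equal size, numbered from low to high, the sense share was 57.6% in group 1, 65.7% in group 2, 76.6% in group 3 (364 of 475, interval 72.6 to 80.2%) and 55.8% in group 4 (268 of 480, 51.4 to 60.2%). For 5' UTR clusters alone group 3, with scores from 48 to 74, was sense in 51 of 54 cases (94.4%, 84.9 to 98.1%) and group 4 in 32 of 51 (62.7%, 49.0 to 74.7%). In the cyclosporine A list the 4 groups were sense in 63.4%, 73.2%, 71.2% and 54.1% (166 of 307, 48.5 to 59.6%). The drop in group 4 was also there among genes at 10 CPM or more, with 81.7% in group 3 and 60.0% in group 4 of the vehicle list and 77.8% and 54.0% in the cyclosporine A list. In the all-Argonaute list the share was 51.0% in group 1 and 60.0% in group 4, its highest (90 of 150, 52.0 to 67.5%). That last interval lies above an even split. Why the share dropped was not tested.

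**Figure D3:**
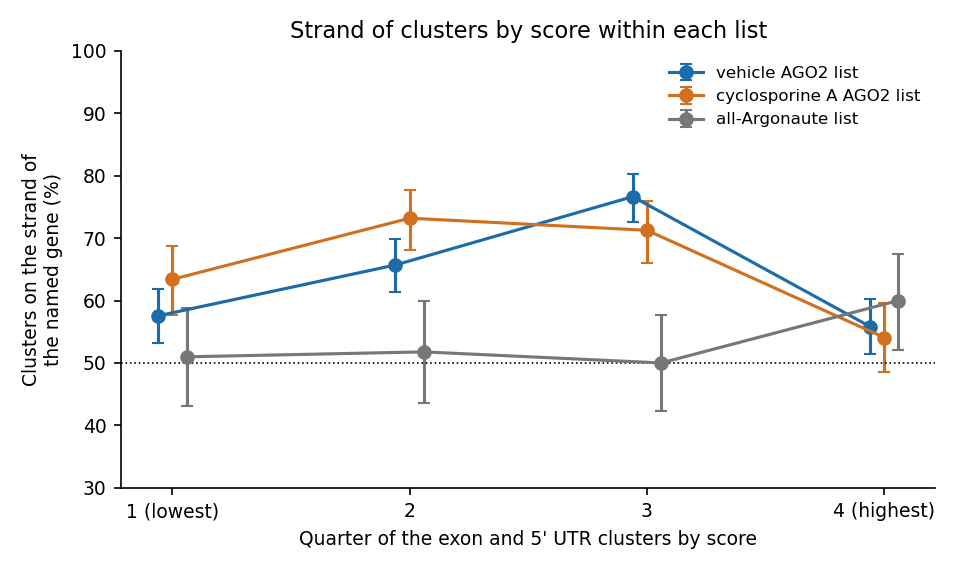
Share of exon and 5' UTR clusters on the strand of the gene named (y axis, %) by score group within each list (x axis, from the lowest to the highest scores); bars are 95% Wilson intervals and the dotted line is an even split. Both AGO2 lines end low in group 4, at 55.8 and 54.1%, after reaching 76.6% in group 3 for vehicle and 73.2% in group 2 for cyclosporine A.

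The genes at the top of the score order are therefore described with their strand. In the vehicle list the highest-scored member lay in the 5' UTR of PLCE1, a phospholipase C gene, on the opposite strand, with a score of 28042; SNX12, a sorting nexin gene, followed with an exon cluster on its own strand (13177), and EIF3F, a translation initiation factor gene, with one on the opposite strand (12218). LAMB2, which encodes a laminin chain, held a sense exon cluster that scored 11723 in the vehicle list and 20991, the top score among members, in the cyclosporine A list. FBXO21 (9315) and ANTXRL (7788) completed the 5 top exon genes of the vehicle list, both antisense, and ANTXRL had no mRNA read in any of the 8 libraries. IL16, with 14683, was second among members in the cyclosporine A list although its mRNA averaged 0.230 ± 0.460 CPM (SD, n = 4), and its cluster was antisense too. SNX12 (sense), CAMTA1 (antisense) and TDP1 (sense) were the next exon genes in that list. The all-Argonaute list was led by COL4A5, NUAK2, SNX12, NUDT8 and ZNF688 in exons, and its leading 5' UTR clusters included those at PLCE1 and POGZ.

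Clusters found in both AGO2 lists had high scores and a weaker strand preference. Of vehicle exon clusters, 450 of 2102 (21.4%, interval 19.7 to 23.2%) overlapped a cyclosporine A cluster on the same strand by at least 1 base, and of cyclosporine A exon clusters 452 of 1392 (32.5%, 30.1 to 35.0%) overlapped a vehicle cluster. For 5' UTR clusters the counts were 45 of 247 (18.2%) and 46 of 113 (40.7%). Intron clusters overlapped more often, 31.8% and 48.9%. The median score of overlapping vehicle exon clusters was 102.5, against 39 for the others. Of vehicle members with a known strand, 54.9% were sense if they overlapped (410 clusters) and 66.3% if they did not (1003 of 1513, 63.9 to 68.6%); in the cyclosporine A list the shares were 54.8% and 71.0%. In all, 186 of the 2349 vehicle members overlapped a cluster in both other lists, with a median score of 186.5 against 45 for the whole class and a sense share of 57.9% (92 of 159, 50.1 to 65.3%). By score they were led by PLCE1, SNX12, EIF3F, ADGRG6 (an adhesion receptor), PHKB (a phosphorylase kinase subunit), COL22A1 and CAMTA1.

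A group of genes of skeletal muscle stood out by the number and strand of their clusters. TTN, the gene of the sarcomere spring titin, had the most exon clusters in the vehicle list, 18, of which 17 were sense, and 19 in the cyclosporine A list, of which 16 were sense, and none in the all-Argonaute list. MYH2, a fast muscle myosin gene, was among the 5 genes with the most clusters, with 5 and 3, all sense. A list of 39 sarcomere and muscle metabolism genes was then drawn up after these values were seen, so its counts describe and support nothing. It held 50 vehicle clusters in 19 genes, 42 sense, 1 antisense and 7 at genes of unknown strand, and 51 cyclosporine A clusters in 19 genes, 39 sense, 4 antisense and 8 unknown. The all-Argonaute list held 2, that is 0.275% of its members against 2.13% and 3.39% in the AGO2 lists.

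Many of these genes were at or near 0 in the mRNA libraries, which come from a longer treatment than the PAR-CLIP cells had. MYH1 read 0.142, 0.368, 0 and 0.226 CPM in the 4 vehicle libraries and 0 in all 4 cyclosporine A libraries, with 4 and 3 exon clusters. CKM, the muscle creatine kinase gene, read 0.142, 0, 0.423 and 0 CPM and again 0 in all cyclosporine A libraries, with 1 and 4 clusters. ACTA1, skeletal alpha-actin, stayed at or below 0.460 CPM in every library and had 4 clusters in the vehicle list alone. In the vehicle list 27 of the 50 clusters, in 13 genes, lay in genes under 1 CPM. Without the muscle genes the sense share of vehicle members in genes under 1 CPM was 44.6% (161 of 361, interval 39.6 to 49.8%). Not all were silent: TTN had 96.7 ± 7.12 CPM in vehicle and 68.1 ± 6.38 CPM in cyclosporine A libraries (SD, n = 4 each). FLNC, a filamin gene with 728 ± 22.0 and 1785 ± 87.9 CPM and a single vehicle cluster, supplied most of the summed level of the list, 1057 to 1142 CPM in vehicle and 2036 to 2213 CPM in cyclosporine A libraries. Scores were ordinary, with a median of 44.5 against 45 for all vehicle members. The myosin genes resemble each other in sequence, and 1 cyclosporine A cluster was listed with the same letters at MYH1 and MYH4. The counts of these genes are therefore not independent.

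Clusters of muscle genes seen in both AGO2 lists and on the gene's strand are shown because they sit in these genes at the same bases under both treatments; capitals mark the bases that both lists cover.
NEB: TACAATGAATGGTACAAAGGGC
MYH2: AATGTGCTTCCCTCGAAAAGA
TTN: cGTTGGGTGAAAGCTGGAAAGACTG
MYLPF: TGTTCGACCAGACTCAGAt
They lie at chr2:152512498-152512519 (NEB, nebulin), chr17:10429114-10429134, chr2:179476623-179476647 and chr16:30387199-30387217 (MYLPF, a fast myosin light chain). Of the 50 vehicle clusters 11 overlapped a cyclosporine A cluster. Where the RNA in these clusters came from was not tested.

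**Figure D4:**
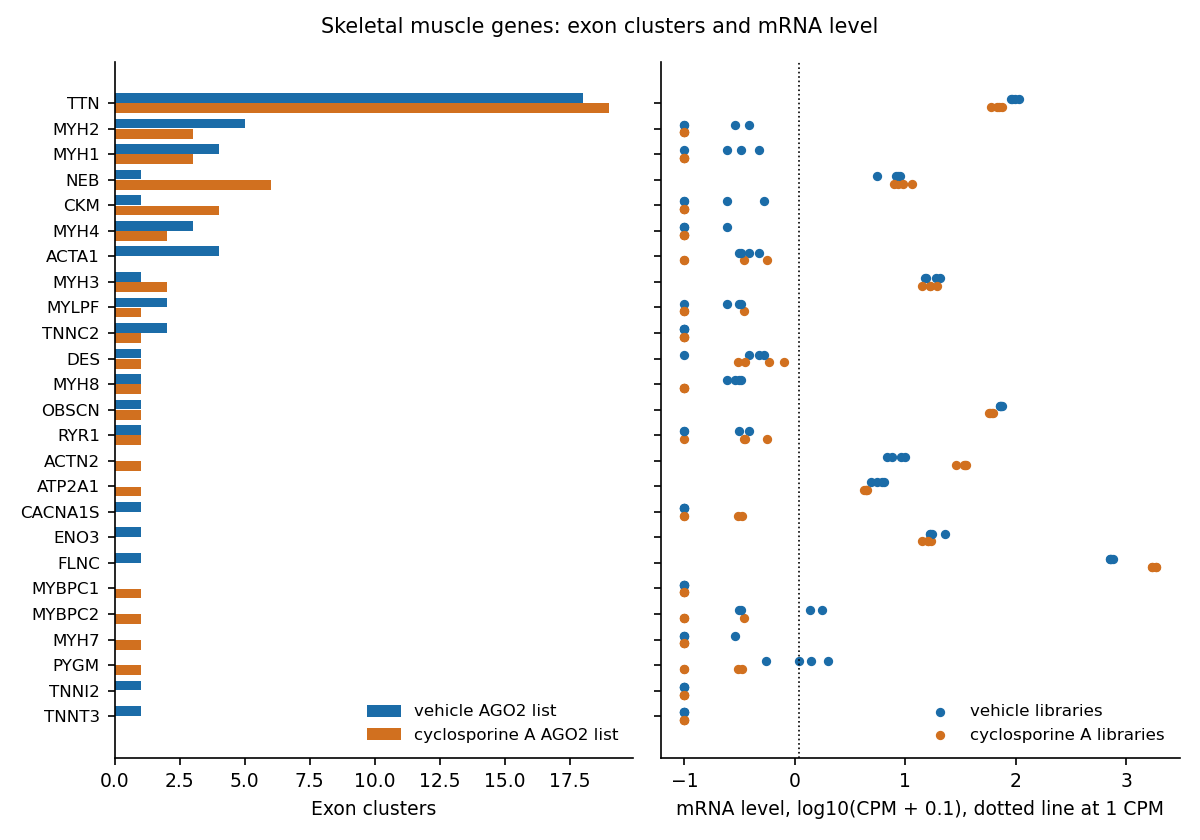
Skeletal muscle genes with an exon cluster: number of exon clusters in the 2 AGO2 lists (left) and mRNA level in each of the 8 libraries as log10 of CPM + 0.1 (right; the dotted line is 1 CPM). TTN has 18 and 19 clusters with 59.6 to 106 CPM, while MYH1, MYH2, MYH4, CKM and ACTA1 have 3 to 5 clusters in at least 1 list and lie left of the line in every library.

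Other genes with many exon clusters in the vehicle list were MUC16, COL1A1 and TGOLN2. MUC16, a mucin gene at 0.138 ± 0.0981 CPM, had 7 clusters of which 6 were antisense. TGOLN2, which encodes a trans-Golgi protein and had 508 ± 24.3 CPM, had 5, all sense. COL1A1, a collagen gene at 15.6 ± 3.02 CPM, had 6, and the strand of the gene was not matched.

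Seed sites of abundant miRNAs were rare in the members. The 10 most abundant seed families of the vehicle small RNA libraries were searched as the reverse complement of bases 2 to 8. The opposite orientation of each site was counted beside it. It is not an even match, because clusters held more G than C: 32.5% and 23.4% in vehicle exon clusters, 30.05% and 18.2% in vehicle intron clusters. The comparison therefore cannot tell miRNA sites from base composition. In vehicle exon clusters 23 of 2102 (1.09%, interval 0.730 to 1.64%) held a site and 14 (0.666%, 0.397 to 1.11%) the opposite orientation. In cyclosporine A exon clusters the counts were 19 of 1392 (1.36%, 0.876 to 2.12%) and 7 (0.503%, 0.244 to 1.03%). In each list the 2 intervals overlap. In 5' UTR clusters 5 of 247 and 1 of 113 held a site. Vehicle 3' UTR, intron and intergenic clusters held sites in 1.60%, 1.51% and 1.48%, and those of the cyclosporine A list in 1.32%, 1.497% and 1.31%.

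The sites were spread unevenly over the families. The most abundant miRNA, miR-21-5p, at 595716 ± 55875 CPM in vehicle libraries (SD, n = 4), and the miR-30 family had no site in any exon or 5' UTR cluster of either AGO2 list; a count of 0 allows a share of up to 0.143% of vehicle exon clusters (3 counts of the total). The miR-205 site was the most frequent, in 8 vehicle and 14 cyclosporine A exon clusters, against 2 and 1 for its opposite orientation; miR-205-5p is an epithelial miRNA and ranked eighth, with 9606 ± 951 CPM. Of the 14, 8 were sense, and they include the CLIP1 cluster printed above and clusters at MYH1 and MYH4, which have the same letters. The clusters at FAM153A and FAM153B have nearly the same letters. MYH1, MYH4, FAM153A, FAM153B, NOD2, FGD2 and PRKACG, all among the genes of the 14, were under 1 CPM in cyclosporine A libraries. In introns the miR-205 site lay in 100 vehicle clusters against 12 for the opposite orientation and in 52 cyclosporine A clusters against 4, where the miR-181 site, in 56, was more frequent. let-7 sites lay in 4 vehicle intron clusters against 52 for the opposite orientation. let-7 sites lay in 4 vehicle exon clusters, at GDAP2, SNRNP200, ACTA2 and ACTB. Of overlapping vehicle members with a site, CLIP1, a microtubule tip protein gene, SLC43A3, a membrane transporter gene, NOD2 and TEX101 were named by the rule, and NOD2 and TEX101 had no mRNA read in any library. The TEX101 cluster also shared a stretch of 15 bases with clusters annotated as ribosomal RNA, in both AGO2 lists.

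Most of these miRNAs did not pass the test for a change with cyclosporine A, and 53 of 470 miRNAs tested did (11.3%, of which 4.89% higher and 6.38% lower). miR-10a-5p read 19951, 17808, 19815 and 19080 CPM in vehicle and 12478, 11946, 15308 and 15505 CPM in cyclosporine A libraries. It fell by 0.47 ± 0.11 on the log2 scale (SE, edgeR quasi-likelihood test, adjusted p = 0.00976), and the groups did not overlap. let-7i-5p (-0.31 ± 0.11, adjusted p = 0.0901), miR-205-5p (-0.27 ± 0.11, 0.138), miR-222-3p (0.31 ± 0.12, 0.121) and miR-181a-5p (0.26 ± 0.11, 0.168) missed the edgeR threshold of 0.05. let-7i-5p passed it with the replicate number as a block (adjusted p = 0.00832), with RLE size factors (0.0467) and without cyclosporine A replicate 4 (0.0445), and miR-222-3p passed it with the block (0.0267) and without cyclosporine A replicate 2 (0.0144). The sites at USP15 and EIF1 shown above are those of the family that fell.

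Genes with a member in either AGO2 list were 2727 in the mRNA table, of which 2063 passed the filter on low counts. Of these, 820 (39.7%) rose and 642 (31.1%) fell after 48 h of cyclosporine A, where over all 12855 genes tested 66.9% changed, 33.3% up and 33.5% down (edgeR quasi-likelihood test, adjusted p under 0.05). Their median log2 fold change was 0.07, against -0.0022 over all genes tested. Cluster genes are more abundant than others, with a median of 51.8 against 30.4 CPM. Among genes at 10 CPM or more, 43.2% rose and 30.2% fell against a background of 38.3% and 32.5% (70.8% in all), with medians of 0.10 and 0.05. Genes with a sense member in the vehicle list and none in the cyclosporine A list had a median of 0.09, the reverse 0.11, and those with one in both 0.07, so the lists did not separate genes that rose from genes that fell. PAR-CLIP and mRNA were sampled at different times, 24 h and 48 h.

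By gene group, clusters of ER stress and chaperone genes were nearly all sense. So were the vehicle clusters of known strand in cytoskeletal, histone and ribosomal protein genes. ER stress and ATF4 genes held 8 vehicle members in 6 genes, all sense, and 1 in the cyclosporine A list; all 13 genes of the list rose, with a median log2 fold change of 1.09. The 6 with clusters were ATF4 and ATF3, transcription factors of the stress response, XBP1, SESN2, HERPUD1 and VLDLR. HERPUD1, which acts in degradation at the endoplasmic reticulum, read 96.5, 87.8, 88.9 and 86.5 CPM in vehicle and 249, 247, 236 and 238 CPM in cyclosporine A libraries, a log2 fold change of 1.43 ± 0.06 with no overlap. Chaperone genes held 11 vehicle clusters, 10 of them sense, and 12 cyclosporine A clusters, all sense, and 11 of 14 rose (median 0.43). In each list HSPA5 held 4 of these clusters, and HSPA1A and HSPA1B, near-identical copies, 2 each, so few loci supply most of them. Among members of all genes at 100 CPM or more, 73.5% (vehicle list) and 78.3% (cyclosporine A list) were sense. Of the 9 chaperone genes with a cluster 7 rose; PDIA4 (-0.04 ± 0.06) and PDIA6 (-0.08 ± 0.06), protein disulfide isomerase genes with a sense cluster in the cyclosporine A list, did not pass the test. HSPA5, the main chaperone of the endoplasmic reticulum, had 4 sense members in each list, 1 and 2 of them in its 5' UTR, and went from 1839 ± 123 to 5099 ± 309 CPM.

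Translation factor genes had clusters on both strands. The translation factor list took symbols starting EIF or EEF. It therefore also holds kinase genes, such as EIF2AK3, EIF2AK4 and EEF2K. Of its 63 genes tested 47 rose and 3 fell (median 0.34). The 18 with an AGO2 member all rose, among them EIF1 by 0.80 ± 0.06, EEF2 by 0.61 ± 0.06 and the kinase gene EIF2AK3 by 0.35 ± 0.07. Of the vehicle clusters of this list 7 were sense and 6 antisense. Of 79 ribosomal protein genes 67 rose and 1 fell (median 0.51). Yet these abundant, short mRNAs held only 5 vehicle members, all sense, and 2 cyclosporine A members, 1 on each strand. Cell cycle genes went the other way, with 15 of 18 lower and 2 higher (median -0.57); TOP2A, the topoisomerase of dividing cells, had a sense vehicle cluster and fell by 0.98 ± 0.06. Of 21 cytoskeletal genes 10 rose and 6 fell. Clusters lay in genes that rose, such as FLNA (0.83 ± 0.06), and in genes that fell, such as VCL (-0.78 ± 0.06). Of the 12 vehicle clusters of this list 7 were sense and 0 antisense, and gene strand was unknown for the rest. Of 11 histone genes tested 4 rose and 5 fell, with 6 vehicle clusters, all sense. Zinc finger genes, 90 higher and 165 lower of 454, held 51 vehicle clusters, 25 sense and 18 antisense.

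Genes of the miRNA silencing machinery held few members. The 5 vehicle clusters lay in CNOT2, CNOT6L, PATL1, TNRC6A and TRIM71, 3 of them sense, and 7 cyclosporine A clusters in CNOT1, CNOT3, CNOT6, PABPC4, PATL1 and TRIM71; the all-Argonaute list had 1, in DROSHA, the nuclease that opens miRNA precursors. Of 37 genes of this list tested 17 rose and 5 fell (median 0.19). PATL1, a decapping factor, rose by 0.87 ± 0.07 from 47.9 ± 2.65 CPM, with a sense cluster in the vehicle list and an antisense one in the cyclosporine A list. CNOT3 (0.31 ± 0.07) and CNOT6 (0.25 ± 0.10), subunits of the deadenylase complex, rose as well, but the 2 groups of CNOT6 overlapped, and it lost its call with DESeq2, without vehicle replicate 2 and without cyclosporine A replicate 4. EIF2C2, the gene of AGO2, held no exon or 5' UTR cluster and read 18.9, 17.5, 18.2 and 18.1 CPM in vehicle and 45.0, 45.2, 42.8 and 43.7 CPM in cyclosporine A libraries. It rose by 1.28 ± 0.10 on the log2 scale (SE, edgeR, adjusted p = 7.47e-18).

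Among genes whose members overlapped between the AGO2 lists, the rule named the 4 largest rises and falls. CPT1A, the carnitine transferase of fatty acid oxidation, read 1.84, 1.29, 2.33 and 1.58 CPM in vehicle and 28.4, 33.5, 36.6 and 26.1 CPM in cyclosporine A libraries (log2 fold change 4.13 ± 0.18). Its exon cluster lay in all 3 lists and on the opposite strand. HSPA1B, an inducible heat shock protein gene, read 29.8, 30.4, 33.2 and 34.6 CPM and then 180.0, 165, 88.1 and 167 CPM (2.24 ± 0.11), with 2 sense clusters in each AGO2 list; its near-identical copy HSPA1A was listed with the same number, and reads cannot be divided between them with certainty. GUCY1A2, a guanylate cyclase subunit gene, rose by 2.03 ± 0.17 and CPEB4, which encodes a regulator of mRNA translation, by 1.92 ± 0.10; the CPEB4 cluster lay in its 5' UTR, sense.

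The 4 falls were VAV3, PLCE1, CTSV and OBSL1. VAV3, a guanine nucleotide exchange factor gene, read 17.7, 19.7, 18.8 and 21.4 CPM and then 3.91, 3.18, 2.76 and 5.63 CPM (-2.32 ± 0.17). PLCE1 read 28.2, 23.9, 24.1 and 23.9 CPM and then 7.61, 6.11, 8.51 and 6.39 CPM (-1.81 ± 0.14). CTSV, a cathepsin gene, fell by 1.70 ± 0.11 and OBSL1, a cytoskeletal adaptor gene, by 1.68 ± 0.06. Groups did not overlap for any of the 8, a condition of the rule, and their adjusted p-values in the edgeR quasi-likelihood test ran from 1.98e-31 (OBSL1) to 3.23e-16 (GUCY1A2). The clusters of CTSV, HSPA1B, GUCY1A2 and CPEB4 were sense and those of CPT1A, VAV3, PLCE1 and OBSL1 antisense. CLIP1, whose miR-205 site was printed above, read 94.5, 90.0, 88.7 and 91.0 CPM and then 135, 146, 144 and 141 CPM (0.63 ± 0.06).

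**Figure D5:**
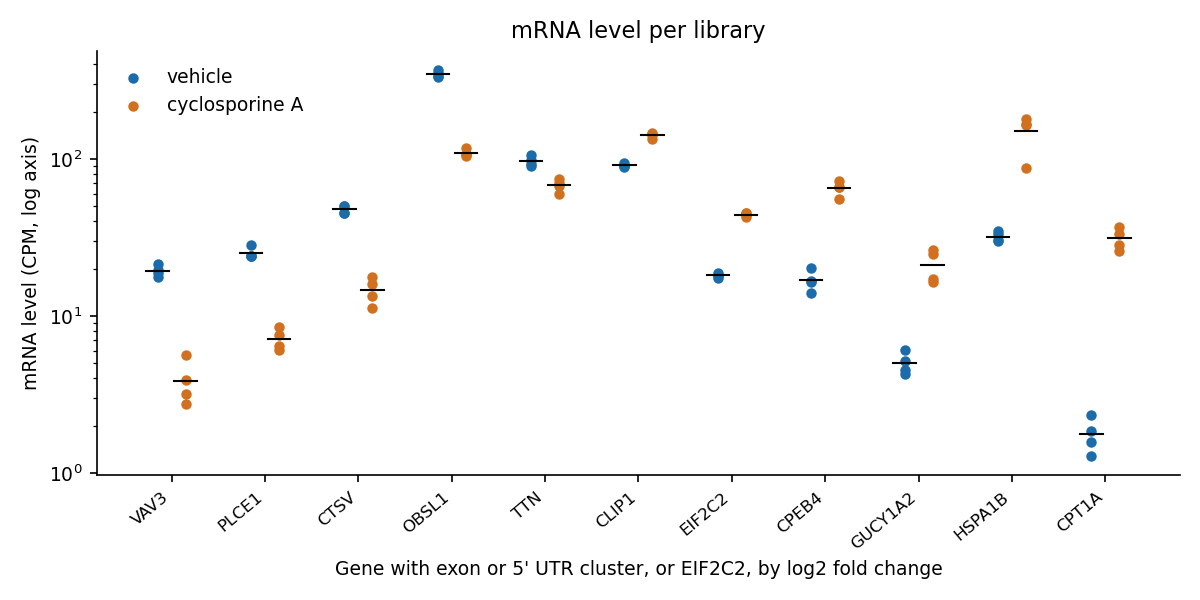
mRNA level (y axis, CPM, log axis) in each of 4 vehicle and 4 cyclosporine A libraries for the 8 genes with the largest changes among those with overlapping AGO2 clusters, and for TTN, CLIP1 and EIF2C2; points are libraries and black lines group means. The vehicle and cyclosporine A points do not overlap in any of the genes shown.

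The mRNA libraries held 3965431 to 7041604 counts and the small RNA libraries 6664231 to 9184278. Of 15 proximal tubule markers 9 were under 1 CPM, among them the receptor genes CUBN (0.798 CPM in vehicle) and LRP2 (0.0355 CPM), and 3 had no read; the list summed to 337 to 363 CPM in vehicle and 360.0 to 373 CPM in cyclosporine A libraries. The 4 epithelial markers summed to 324 to 349 CPM in vehicle and 357 to 397 CPM in cyclosporine A libraries. CUBN and LRP2 held clusters all the same: CUBN 1 sense in the vehicle and 1 antisense in the cyclosporine A list, and LRP2 1 antisense in the latter. Of 6 endothelial and immune markers 5 were under 1 CPM and 3 had no read, and the list summed to 130 to 162 CPM in vehicle libraries. Of 6 distal and collecting tubule markers 4 were under 1 CPM, 2 of them with no read. The list summed to 1107 to 1244 CPM in vehicle and 624 to 660 CPM in cyclosporine A libraries, and the 2 genes tested fell. PTPRC, the leukocyte marker CD45, had no read in any library and 1 sense vehicle cluster.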

How the data were processed

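PAR-CLIP clusters, gene counts and miRNA counts of HK-2 cells were used. Each cluster list gives, per the file headers, the position, annotation, letters and peak score of each cluster; the authors deposited 1 list per treatment, and the sources used here give neither the score's unit nor the cluster caller. Which treatment a list holds was read from its name. The authors deposited raw counts per gene and per miRNA for each library. The submitters' processing notes name Bowtie, TopHat, HTSeq, DESeq2, cutadapt and CASAVA 1.8.2 with build hg19, without roles; whether counting used the strand is not stated, so overlapping and antisense genes cannot be told apart in the counts.

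Counts were fitted with edgeR 4.0.16 (filterByExpr, TMM, quasi-likelihood test, Benjamini-Hochberg over all 12855 genes and 470 miRNAs tested, threshold 0.05). DESeq2 1.42.0, other scaling, no filter, a replicate block and left-out libraries were alternatives. CPM used library totals scaled by TMM. On simulated data the fits recovered most of the genes that were given a known change. Those changes were larger than most mRNA changes called here, so smaller ones were not checked. As the labels do not say that libraries came from separate cultures, p-values reflect only how far these libraries differ, which may be technical. The 28 rows whose gene symbols had turned into dates stayed in the fit and were matched to no cluster.

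Gene strand came from RefSeq start tables (GRCh38.p14), matched by transcript or symbol on the same chromosome; coordinates of that build are not printed. List sequences were read as given: in 17780 of 17780 overlapping pairs of AGO2 clusters the shared bases had the same letters. Of 49 antisense 5' UTR clusters in the vehicle list, 0 matched the start window of their gene on the gene's strand. On the other strand 8 matched, and the rest were not found on either. Sequences of the all-Argonaute list were not used, since length and interval agreed for only 90 of its 654 exon clusters. Clusters were compared with bedtools 2.31.1. Coordinates are hg19, 1-based. A mature sequence was found in RefSeq for 2281 of 2586 miRNAs; miR-30d-5p and miR-151a-3p were among those without one.

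Named genes are those of the 5 top exon and 3 top 5' UTR scores per list, of the most exon clusters in the vehicle list, of overlapping members with the largest mRNA changes (mean of at least 50 counts, no overlap of groups) or in all lists, of overlapping members with a seed site, and of the silencing list; genes of other lists are examples. Mitochondrial repeat genes were not named. A gene that the rule also named is not reported here. Members and lists were chosen with earlier results of these data known.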

Additional observations from a re-analysis of the deposited data

Results flagged for a closer look

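In 96 groups of 4 libraries (48 named genes and miRNAs, each in vehicle and in cyclosporine A), 6 held a library far from the other 3, where chance alone gives about 5% of groups. For CNOT3 the highest vehicle library read 71.8 CPM against 66.8 to 67.3 in the others (gap 0.916 of the range), and the highest cyclosporine A library 90.2 against 82.1 to 83.0 (0.881). For DROSHA (74.8 against 67.7 to 68.9 CPM, gap 0.8292) and TNRC6A (103 against 92.1 to 93.8 CPM, gap 0.849) it was cyclosporine A replicate 3, as for the higher CNOT3 value. In the same library HSPA1B was lowest, at 88.1 CPM against 165 to 180.0 CPM (gap 0.838). For PLCE1 the highest vehicle library read 28.2 against 23.9 to 24.1 CPM (gap 0.951).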

How the results depend on the processing

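Replicate numbers in the labels did not pair the mRNA libraries. Deviations from the group mean correlated at -0.084, 0.010, -0.056 and 0.033 between same-numbered mRNA libraries, and 1 of 4 matched its own number best. For miRNA libraries the values were 0.042, 0.338, -0.060 and 0.153, and 2 of 4 matched. These values do not decide whether the miRNA libraries were paired. With the replicate block, 812 genes with an AGO2 member rose and 635 fell, and 3 of the 10 leading miRNAs (miR-10a-5p, let-7i-5p and miR-222-3p) were called in place of 1, and 92 of all miRNAs in place of 53. Without vehicle replicate 3 that last count was 29. DESeq2 gave 776 and 593 genes, and leaving out each library in turn 792 to 816 and 611 to 646. The median log2 fold change of these genes, 0.07, was 0.0359 without the low-count filter (all genes -0.0599, against -0.0022 with it), 0.0867 for the top-scored part of each list, and 0.0669 to 0.0826 with a library left out. The miRNA count was 2 with RLE size factors and 1 to 2 with a library left out. In the top-scored part of each list, members made up 3.10% of the cyclosporine A list, its exon sense share was 57.3%, and overlap was 23.7% (vehicle in cyclosporine A), 50.5% (the reverse), 40.5% (all-Argonaute in vehicle), 23.5% (cyclosporine A in all-Argonaute) and 35.9% (the reverse). The share of members with a seed site, and with its opposite orientation, was 4.26% and 2.94% (vehicle) and 4.32% and 2.39% (cyclosporine A) for bases 2 to 7, 0.298% and 0.298%, and 0.199% and 0.199%, for 5 families, and 2.64% and 1.40%, and 2.99% and 1.46%, for 20 families. The cause of these shifts was not tested. Signs changed only for genes and miRNAs that were not called. With a library left out, the log2 fold change ran from -0.0190 to 0.0439 for CNOT2, -0.0741 to 0.101 for FBXO21, -0.0767 to 0.103 for miR-21-5p, -0.0882 to 0.0233 for miR-30a-5p, -0.00577 to 0.0858 for miR-26a-5p and -0.00895 to 0.126 for miR-92a-3p. It was 0.00177 with DESeq2 and 0.000964 without the filter for miR-21-5p, and -0.00497 with RLE size factors for miR-26a-5p. Each AGO2 treatment has 1 list, so counting intervals do not cover variation between PAR-CLIP libraries.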

Other observations

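The bases of the members were compared by strand, without a test. In the vehicle list, sense clusters of genes at 10 CPM or more held 21.6% T and ended in G, the base after which RNase T1 cuts, in 35.6% of cases (896 clusters, interval 32.5 to 38.8%), and antisense clusters of such genes held 24.6% T and ended in G in 29.0% (396 clusters, 24.8 to 33.7%). Intron clusters ended in G in 26.2% (25.6 to 26.7%) and 5' UTR clusters in 38.9% (33.0 to 45.1%). In the cyclosporine A list the sense and antisense shares were 37.1% (33.3 to 41.1%) and 31.4% (25.8 to 37.5%). In each list the intervals of sense and antisense clusters overlap.

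Few members shared a stretch of 15 bases with clusters annotated as ribosomal RNA (5 of 2102 vehicle exon clusters, 0.238%) or transfer RNA (3, 0.143%), or with a miRNA hairpin (7, 0.333%). The same counts in cyclosporine A exon clusters were 4, 3 and 2 of 1392. Of 5' UTR clusters, 1 of 247 and 1 of 113, both at TEX101, shared one with ribosomal RNA, and 3 and 1 with a miRNA hairpin.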
